A study of Mus musculus with 6 samples.

Results

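The 38 genes described here encode the folding and quality control apparatus of the endoplasmic reticulum (ER): its chaperones and disulfide isomerases, the sensors of the unfolded protein response, and the machinery of ER-associated degradation (ERAD). The rule that picks them uses gene symbols and no measured value, though the set was drawn up with earlier results of these data known. STIM1 itself senses calcium in the ER lumen. All 38 were found among the 23393 named genes of the table, and all 38 were tested, along with every other gene whose mean reached 10 normalised read counts, 11947 genes in all. Poly(A) RNA came from mouse pathogenic Th17 cells, grown from naive CD4 T cells of C57BL/6 mice for 2 days on plates coated with antibodies to CD3 and CD28, with the cytokines IL-23, IL-6 and IL-1b. In the group called Stim1KO Stat3C (Stim1fl/fl Stat3CSTOPfl/fl CD4-Cre), Cre expressed from the Cd4 promoter removed the floxed part of Stim1 and also switched on Stat3C, a constitutively active STAT3. The group called Stat3C (Stat3CSTOPfl/fl CD4-Cre) carried the same Stat3C allele and the same Cre with Stim1 intact, so both groups hold active STAT3 and neither is a wild type. Each group had 3 libraries, and nothing in the labels says whether each came from a separate mouse. By 2 sex-linked genes described further on, 1 library of each group was female and the others were male, so each group holds cells of more than 1 animal. The spread behind the p-values therefore includes sex, and part of it may be technical.

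Proteins that enter the ER are folded there by chaperones that need ATP and, in several cases, bind calcium. BiP (Hspa5) and GRP94 (Hsp90b1) hold folding chains, calreticulin (Calr) and calnexin (Canx) hold glycoproteins, and the isomerases form disulfide bonds. When unfolded protein accumulates, the sensors IRE1 (Ern1), PERK (Eif2ak3) and ATF6 (Atf6) start the unfolded protein response: IRE1 splices Xbp1 RNA into the form that encodes the active factor, PERK slows translation, and ATF6 is cut to release a transcription factor. Chains that fail to fold are sent through the SEL1L and HRD1 (Syvn1) ligase complex to the cytosol, where p97 (Vcp) extracts them for the proteasome. Loss of calcium from the ER is a classical trigger of this response in mammalian cells.

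The libraries fitted their labels for the deleted gene. Stim1 stood at 811, 794 and 687 normalised counts in Stim1KO Stat3C and at 1999, 1969 and 1931 in Stat3C (log2 fold change -1.37, SE 0.08, adjusted p = 0.000287 by limma). The sources used here do not say which Stim1 exons Cre removes. Recovered depth was 16009755, 20660749 and 22519269 reads in Stim1KO Stat3C and 51347367, 43532417 and 23092044 reads in Stat3C, so the control libraries were on the whole the deeper ones. Xist stood at 11549 normalised counts in replicate 3 of Stim1KO Stat3C and 8362 in replicate 3 of Stat3C and at 3.53 or less in the others. The Y-linked gene Eif2s3y stood at 1034, 1518 and 0 in Stim1KO Stat3C and at 1412, 1339 and 0 in Stat3C, so replicate 3 was female in both groups and replicates 1 and 2 were male. The Th17 genes Il17a and Il17f were detected in every library, as were Cd3e and Cd4. The sum of 6 Th17 markers was 5986, 5911 and 4854 in Stim1KO Stat3C and 15136, 16946 and 20000 in Stat3C. By limma 3 of them were lower and 3 did not pass. The sum of 6 CD4 T cell markers was 44005, 40730 and 40665 in Stim1KO Stat3C and 36519, 33105 and 35320 in Stat3C. By limma 4 of them were higher and 2 did not pass. What part these differences had in the results below was not tested. Summed levels of 8 measured B and plasma cell markers were 415, 358 and 310 in Stim1KO Stat3C and 478, 354 and 610 in Stat3C. Within that list Sdc1, a plasma cell marker, stood at 312, 275 and 239 in Stim1KO Stat3C and at 219, 172 and 221 in Stat3C. The sum of 2 CD8 T cell markers was 159, 111 and 143 in Stim1KO Stat3C and 421, 277 and 453 in Stat3C. The sum of 6 myeloid markers was 17.8, 27.9 and 49.8 in Stim1KO Stat3C and 42.4, 219 and 16.5 in Stat3C, so Stat3C replicate 2 stood highest. The sum of 4 natural killer cell markers stayed at or below 18.1 in all 6 libraries. The part of these other cells in the results below was not tested, and in bulk RNA fewer cells of a type and less RNA per cell cannot be told apart.

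ATF6 and XBP1 are known to act through the ER stress element (ERSE) in promoters, which is CCAAT and CCACG with 9 bases between them, and through a shorter second form (ERSE-II), which is ATTGG and CCACG with 1 base between them. Both were searched on both strands of RefSeq promoter windows (build GRCm38.p6, from 250 bases before to 50 bases after each annotated start), which matched 33 of the 38 genes. The elements are shown because they are the best known promoter feature that genes of this response share. The ERSE was in the window of 10 of the 33 genes (30.3%), against 0.119% of all 32851 windows. Here and for ERSE-II below, the first share counts genes, which had 34 windows, and the second counts windows. As both elements are already known from genes of this response, the contrast is a description and no test. Each match is given in the orientation of the element, with the fixed letters in capitals.
Hspa5, chr2:34772025-34772043, plus strand: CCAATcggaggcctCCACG
Hsp90b1, chr10:86705638-86705656, minus strand: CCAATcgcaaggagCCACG
Hsp90b1, chr10:86705533-86705551, plus strand: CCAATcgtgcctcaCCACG
Dnajc3, chr14:118937827-118937845, plus strand: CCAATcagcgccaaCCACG
Calr, chr8:84847075-84847093, plus strand: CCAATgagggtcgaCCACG
Canx, chr11:50325800-50325818, minus strand: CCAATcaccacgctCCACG
Pdia6, chr12:17266491-17266509, plus strand: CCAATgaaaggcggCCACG
Ero1lb, chr13:12565682-12565700, minus strand: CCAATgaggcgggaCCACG
Creld2, chr15:88819520-88819538, minus strand: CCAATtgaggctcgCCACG
Syvn1, chr19:6046532-6046550, plus strand: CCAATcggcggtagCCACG
Derl3, chr10:75893242-75893260, minus strand: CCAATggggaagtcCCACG
ERSE-II was in the window of 2 of the 33 (6.06%), against 0.0365% of all windows, given below with the whole match in capitals; no match shared letters with a match of the other form.
Dnajb11, chr16:22857852-22857862, plus strand: ATTGGCCCACG
Herpud1, chr8:94386377-94386387, plus strand: ATTGGGCCACG
The 3 genes that carried an element and were higher in Stim1KO Stat3C by the test below are Hsp90b1, Derl3 and Dnajb11, and their windows follow, 5′ to 3′ along the gene with the matches in capitals. The Hsp90b1 window holds an element on each strand, the Derl3 element reads on the strand opposite to the gene, and the Dnajb11 element begins 7 bases after the annotated start.
Hsp90b1, chr10:86705395-86705694, minus strand: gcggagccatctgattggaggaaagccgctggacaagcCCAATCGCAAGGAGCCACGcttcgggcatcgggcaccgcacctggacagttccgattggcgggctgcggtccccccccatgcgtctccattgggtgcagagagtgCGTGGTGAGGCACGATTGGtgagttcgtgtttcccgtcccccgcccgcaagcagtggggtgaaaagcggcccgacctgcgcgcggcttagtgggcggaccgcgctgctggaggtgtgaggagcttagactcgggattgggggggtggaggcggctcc
Derl3, chr10:75893148-75893447, plus strand: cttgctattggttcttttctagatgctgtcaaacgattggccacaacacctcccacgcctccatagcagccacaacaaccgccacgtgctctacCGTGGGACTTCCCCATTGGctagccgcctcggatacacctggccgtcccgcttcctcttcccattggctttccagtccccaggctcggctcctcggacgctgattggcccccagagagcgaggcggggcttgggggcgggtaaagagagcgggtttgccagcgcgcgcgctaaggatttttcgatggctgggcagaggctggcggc
Dnajb11, chr16:22857595-22857894, plus strand: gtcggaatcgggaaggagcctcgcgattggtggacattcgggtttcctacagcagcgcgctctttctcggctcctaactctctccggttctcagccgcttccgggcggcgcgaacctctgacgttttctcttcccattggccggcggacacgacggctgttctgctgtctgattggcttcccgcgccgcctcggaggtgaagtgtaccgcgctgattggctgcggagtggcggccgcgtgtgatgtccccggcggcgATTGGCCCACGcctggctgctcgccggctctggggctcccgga
Among genes with a window, 3 of 7 that were higher and 9 of 26 that were not called held either element. A match is a description of these letters and not evidence of binding, and the table holds no measure of binding.

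The comparison asked how these genes differed when Stim1 was deleted. In Stim1KO Stat3C 7 of the 38 rose (18.4%), none fell and 31 did not pass an adjusted p of 0.05 (limma on log2(value + 1), adjusted over all genes tested). Of all genes tested, 8.62% rose and 4.96% fell. The genes that rose were Hsp90b1, Dnajb11, Pdia4, Eif2ak3, Xbp1, Sel1l and Derl3, which spread over chaperones, isomerases, sensors and ERAD. Most changes were small: the median log2 fold change of the 38 was 0.13 (range -0.11 to 1.67), against -0.00 for all genes tested. Of the 38, 31 had a positive sign (81.6%, against 49.8% of all genes tested). At an unadjusted p under 0.05 by limma, 11 of the 38 were higher and 1, Derl1, was lower. Of all 11947 genes tested, 2036 were higher and 1677 lower at that threshold. At an adjusted p under 0.05, edgeR, DESeq2 and voom also called none of the 38 lower. Groups without any overlap were seen for 19 of the 38 (50%, against 35.6% of all genes tested). Of these 16 were higher (42.1%, against 19.2%) and 3 were lower (7.89%, against 16.4%).

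Which genes passed varied with the libraries used. The number of the 38 called higher was 1, 0 and 2 without Stim1KO Stat3C replicates 1, 2 and 3. Leaving out Stat3C replicate 1, 2 or 3 gave 0, 11 and 1. The number was 0 with replicates 1 and 2 of both groups only, the male libraries. In that fit 82 genes were called over all genes, against 1623. With 1 library left out, calls over all genes were also fewer in 5 of the 6 fits, at between 617 and 1146 against 1623, and stood at 2899 without Stat3C replicate 2. With sex as a second term in the fit, 9 of the 38 were called higher: the same 7 with Pdia6 and Ero1lb. This alternative was added after the data were seen, and calls over all genes rose with it too, to 1816 against 1623. The signs moved less, with 30 to 34 of the genes tested positive and a median of 0.09 to 0.17 in the 20 alternative settings. With a mean filter of 50, Derl3 was not tested, and 30 of the other genes were positive.

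**Figure D1:**
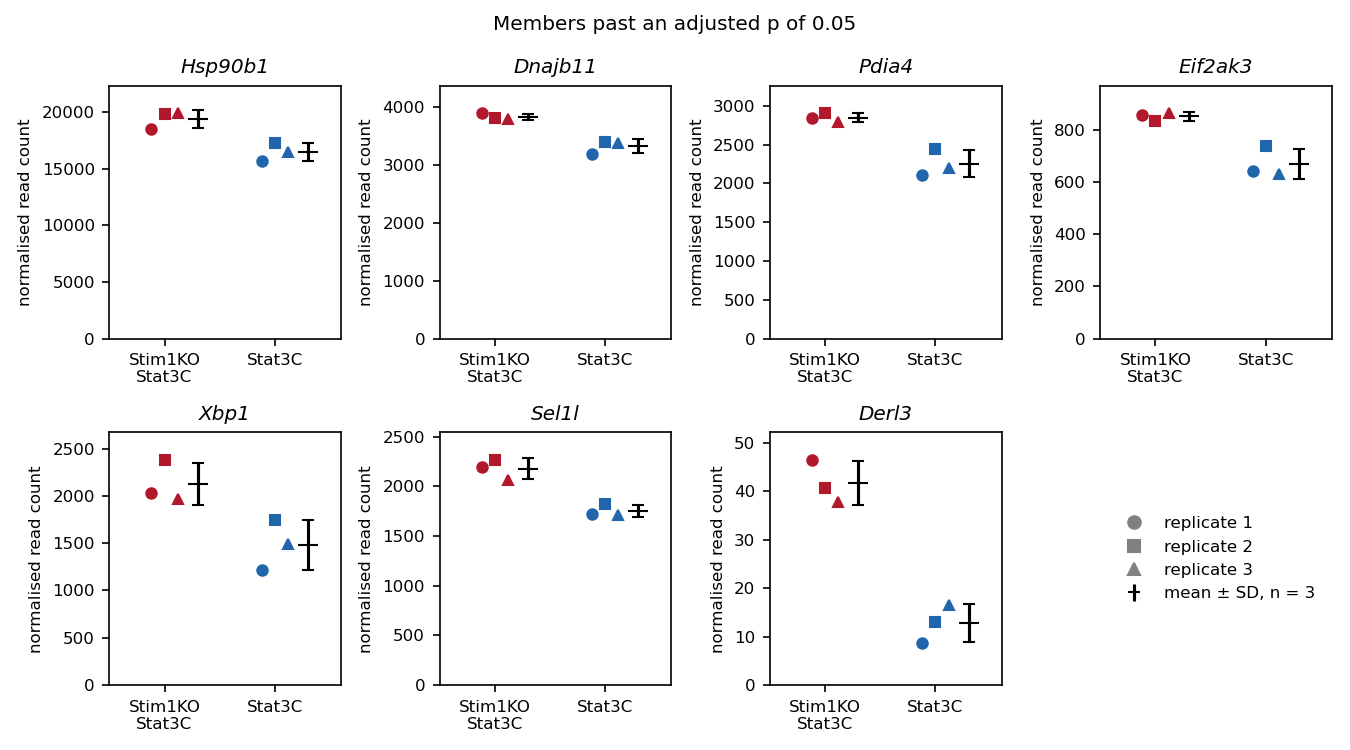
Normalised read counts (vertical axes, from 0) of the 7 genes past an adjusted p of 0.05, with each library as a point (red Stim1KO Stat3C, blue Stat3C, symbol by replicate) and the mean ± SD of the 3 libraries beside it. The groups do not overlap in any panel, and Derl3 lies far below the other genes, between 8.66 and 46.6 counts.

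Of the 3 sensors and Xbp1, which start the response, Eif2ak3 and Xbp1 rose. Eif2ak3, which encodes the translation-slowing kinase PERK, stood at 856, 831 and 863 normalised counts in Stim1KO Stat3C and at 641, 735 and 631 in Stat3C. All 3 Stim1KO Stat3C libraries lay above all 3 Stat3C libraries. Its log2 fold change was 0.35 (SE 0.08, adjusted p = 0.0283), a mean 27.1% higher. Xbp1, the transcription factor gene whose RNA is spliced by IRE1, stood at 2028, 2384 and 1964 in Stim1KO Stat3C and at 1218, 1744 and 1490 in Stat3C. Again the groups did not overlap, and Stat3C replicate 2 was the Stat3C library closest to Stim1KO Stat3C. The log2 fold change of Xbp1 was 0.53 (SE 0.13, adjusted p = 0.0357), a mean 43.2% higher. The table holds 1 value per gene, so spliced and unspliced Xbp1 RNA are not separated.

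Of the other sensors, Atf6 stood at 3413, 3313 and 3218 in Stim1KO Stat3C and at 2916, 3010 and 3099 in Stat3C. These groups did not overlap, but the difference missed the threshold (log2 0.14, 95% interval 0.02 to 0.26, adjusted p = 0.112). Ern1, which encodes IRE1, stood at 403, 300 and 190 in Stim1KO Stat3C and at 264, 361 and 241 in Stat3C. Its values overlapped widely, and the interval of -0.62 to 0.62 around a log2 fold change of -0.00 leaves changes of either sign possible.

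Among the Hsp70 and Hsp90 class chaperones and their cofactors, 2 of 10 rose, none fell and 8 did not pass. Hsp90b1, the ER member of the Hsp90 family and a calcium-binding chaperone, stood at 18454, 19799 and 19897 in Stim1KO Stat3C and at 15635, 17265 and 16454 in Stat3C. The groups were separate, with the smallest gap between Stim1KO Stat3C replicate 1 and Stat3C replicate 2. Its log2 fold change was 0.24 (SE 0.06, adjusted p = 0.0303), a mean 17.8% higher. Dnajb11, a J-domain cofactor of BiP, stood at 3900, 3812 and 3802 in Stim1KO Stat3C and at 3186, 3399 and 3390 in Stat3C. The Stim1KO Stat3C libraries lay close together and above the rest (log2 0.21, SE 0.05, adjusted p = 0.032).

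Hspa5, which encodes BiP, the most used marker of the response, did not pass the test. It stood at 17136, 19148 and 18997 in Stim1KO Stat3C and at 16854, 16974 and 17848 in Stat3C. Stim1KO Stat3C replicate 1 fell within the Stat3C range, and the log2 fold change was 0.10 (95% interval -0.04 to 0.23, adjusted p = 0.297). Hyou1, a large Hsp70 relative that exchanges the nucleotide of BiP, stood at 6012 ± 295 in Stim1KO Stat3C and 6160 ± 83.2 in Stat3C (SD, n = 3 each), with an interval of -0.16 to 0.08. Sil1, the other exchange factor, stood at 427 ± 38 in Stim1KO Stat3C and 425 ± 19.0 in Stat3C, with an interval of -0.22 to 0.23. Both lay within the spread between libraries.

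The remaining cofactors had positive log2 fold changes that missed the threshold. Dnajc3 (also called p58IPK) had 0.09 and Dnajc10 (ERdj5, a J-domain protein that reduces disulfides) had 0.08. Sdf2l1, a partner of the BiP cycle, had 0.15, and Sec63, the J-domain protein that recruits BiP to the translocon, had 0.13. For Dnajc10 and Sec63 the groups did not overlap, whereas for Dnajc3 and Sdf2l1 they did. Dnajb9 (ERdj4, a repressor of IRE1 that is strongly induced by XBP1 in other cells) was low, at 140, 101 and 115 in Stim1KO Stat3C and at 89.2, 128 and 85.3 in Stat3C. Its values overlapped (log2 0.25, 95% interval -0.25 to 0.74, adjusted p = 0.469).

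The lectin chaperones did not pass. Calr, the main calcium buffer of the ER lumen, stood at 23033, 21529 and 23658 in Stim1KO Stat3C and at 18817, 22821 and 19255 in Stat3C. Stat3C replicate 2 alone made the groups overlap (log2 0.17, 95% interval -0.02 to 0.35, adjusted p = 0.194), and without that library Calr passed the test. Canx, the membrane-bound counterpart, stood at 12955 ± 549 in Stim1KO Stat3C and 12488 ± 160 in Stat3C, with overlapping values.

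Of 7 genes of disulfide formation and their partner Creld2, Pdia4 alone rose by limma, and for 6 the groups did not overlap, 4 on the higher and 2 on the lower side. Pdia4, which encodes the isomerase ERp72, stood at 2847, 2908 and 2790 in Stim1KO Stat3C and at 2114, 2445 and 2203 in Stat3C. The gap between the groups was wider than the spread within either. Its log2 fold change was 0.34 (SE 0.07, adjusted p = 0.0144), a mean 26.4% higher. Ero1lb (now Ero1b), an oxidase that recharges the isomerases, stood at 320, 252 and 260 in Stim1KO Stat3C and at 182, 220 and 151 in Stat3C. It had the second highest log2 fold change of the set, 0.60, and missed the threshold narrowly (SE 0.17, adjusted p = 0.0517 by limma). It passed in 5 of the 20 alternative settings, among them DESeq2, a mean filter of 50 and the fit with sex (adjusted p = 0.0397). Its paralogue Ero1l (now Ero1a) went the other way by very little, at 4295, 4212 and 4197 in Stim1KO Stat3C and 4308, 4389 and 4334 in Stat3C. For Ero1l the log2 fold change was -0.04 (95% interval -0.14 to 0.07, adjusted p = 0.608).

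Pdia6, an isomerase that also binds IRE1, stood at 7624, 8009 and 8468 in Stim1KO Stat3C and at 6794, 7156 and 7381 in Stat3C. The groups were separate and the limma test was missed (log2 0.18, 95% interval 0.04 to 0.31, adjusted p = 0.0814), while Pdia6 passed with DESeq2, with library quality weights and in the fit with sex (adjusted p = 0.0482). Pdia3 (ERp57, the partner of calreticulin) had a log2 fold change of 0.13 with overlapping values, and Creld2 had 0.15 without overlap. P4hb, the prototype protein disulfide isomerase, was lower in all 3 Stim1KO Stat3C libraries, at 14242, 14422 and 14416 against 14617, 15566 and 14891 in Stat3C (log2 -0.06, adjusted p = 0.368). Manf, a lumenal protein that is secreted when ER calcium falls in other cells, stood at 3987, 4053 and 4169 in Stim1KO Stat3C and at 3472, 3873 and 3885 in Stat3C. It did not overlap between groups and did not pass (log2 0.12, adjusted p = 0.204).

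**Figure D2:**
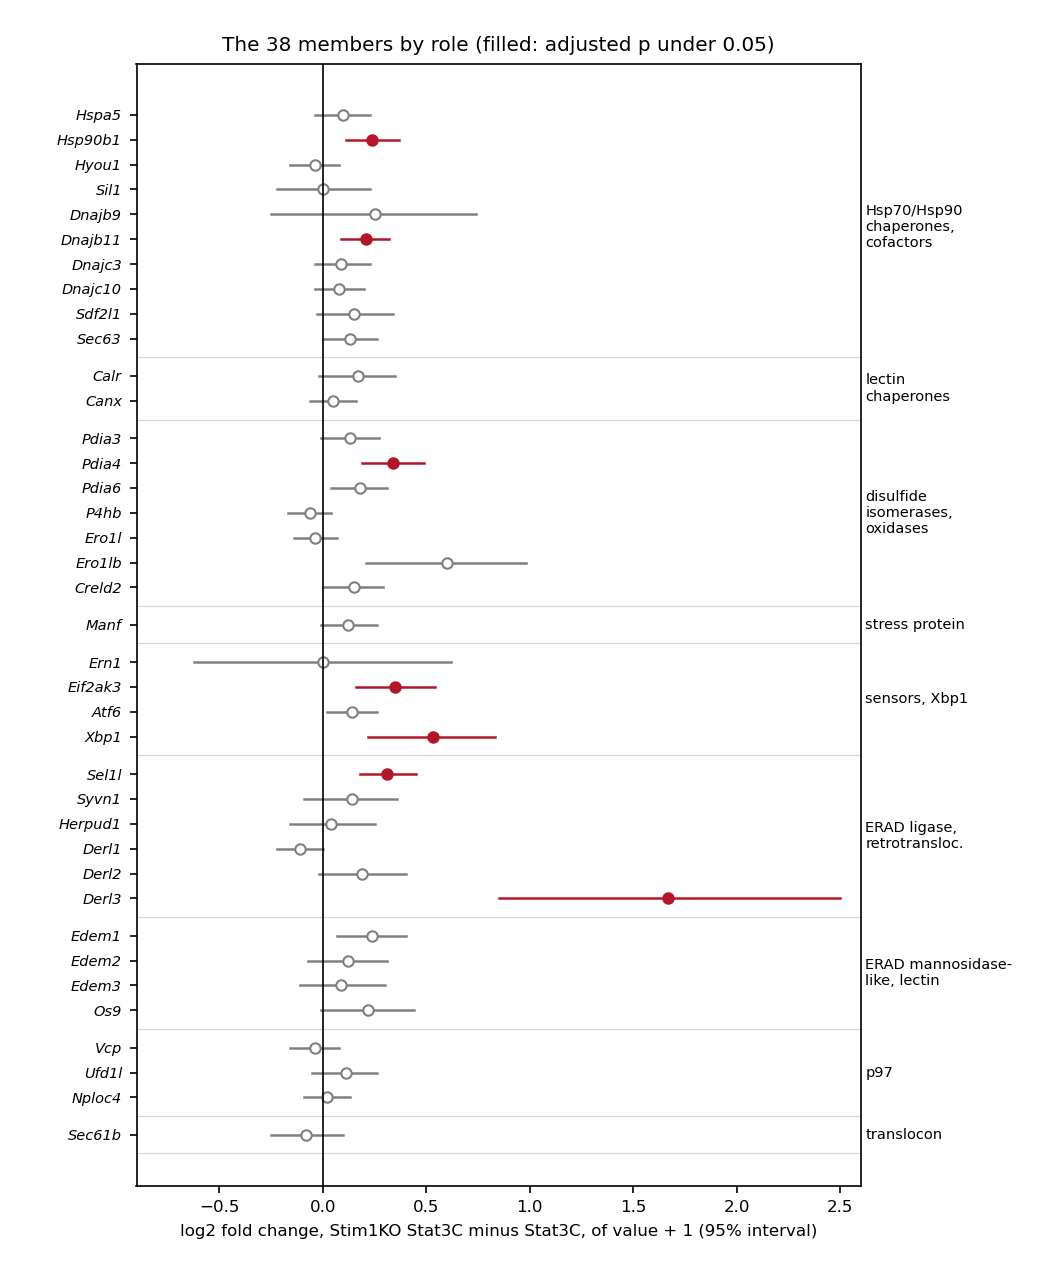
Log2 fold change of value + 1, Stim1KO Stat3C minus Stat3C (horizontal axis), with the 95% interval from limma for each of the 38 genes, grouped by role from top to bottom. The 7 filled red points passed the test, 31 of the 38 points lie right of 0, and most lie under 0.4, with Xbp1 at 0.53, Ero1lb at 0.60 and Derl3 at 1.67 as the exceptions.

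Of 6 genes of the ERAD ligase complex and its channel, 2 rose, Sel1l and Derl3. Sel1l, the adaptor that hands substrates to the HRD1 ligase, stood at 2198, 2270 and 2067 in Stim1KO Stat3C and at 1725, 1819 and 1708 in Stat3C. All Stim1KO Stat3C libraries lay above all Stat3C libraries (log2 0.31, SE 0.06, adjusted p = 0.014). This call was kept in 15 of the 20 alternative settings, the most of any of the 38 genes. Syvn1, which encodes HRD1, overlapped between groups, at 1271, 1529 and 1353 in Stim1KO Stat3C and 1166, 1414 and 1203 in Stat3C (log2 0.14, adjusted p = 0.382). Herpud1, which organises the ligase complex, stood at 1518 ± 83.6 in Stim1KO Stat3C and 1477 ± 162 in Stat3C, also with overlap.

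The 3 derlins, membrane proteins through which ERAD substrates leave the ER, did not behave alike. Derl3 stood at 46.6, 40.8 and 37.8 normalised counts in Stim1KO Stat3C and at 8.66, 13.1 and 16.5 in Stat3C. Every Stim1KO Stat3C library lay above every Stat3C library, and the log2 fold change, 1.67, was the largest of the 38 genes (SE 0.36, adjusted p = 0.0209). These values rest on few reads, 34, 38 and 38 in Stim1KO Stat3C and 20, 26 and 17 in Stat3C. Derl3 is known for its expression in secretory cells such as plasma cells. The plasma cell marker Sdc1, given above, was higher in Stim1KO Stat3C without overlap and missed the threshold (log2 0.43, unadjusted p = 0.0211, adjusted p = 0.0978 by limma). Igj, another plasma cell marker, stood at 39.7, 50.5 and 16.9 in Stim1KO Stat3C and 15.6, 47.3 and 8.72 in Stat3C, with overlap (log2 0.76, adjusted p = 0.462 by limma). The B cell marker Cd79a was lower in Stim1KO Stat3C (log2 -3.53, adjusted p = 0.038 by limma). The part of these cells in the Derl3 values was not tested.

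Derl1 stood at 2509, 2564 and 2539 in Stim1KO Stat3C and at 2759, 2686 and 2784 in Stat3C. It was lower without overlap but missed the threshold (log2 -0.11, SE 0.05, adjusted p = 0.157). Derl2 stood at 859, 716 and 778 in Stim1KO Stat3C and at 713, 708 and 636 in Stat3C, just without overlap (log2 0.19, adjusted p = 0.194). Differences between the derlins were not tested.

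None of the 4 genes for the recognition of misfolded glycoproteins passed, and all 4 had positive log2 fold changes. Edem1, which trims mannose from such proteins, came closest, at 5178, 5003 and 5248 in Stim1KO Stat3C and 4265, 4840 and 4036 in Stat3C. Its groups were separate (log2 0.24, SE 0.07, adjusted p = 0.0647), and it passed without Stat3C replicate 2, with library quality weights and with DESeq2. Os9, the lectin that delivers trimmed substrates to SEL1L, had 0.22 with overlap, which again came from Stat3C replicate 2, at 2558 against 2039 and 2105 in the other Stat3C libraries. Edem2 and Edem3 had 0.12 and 0.09 with overlap.

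The p97 segregase and the translocon gave no calls. Vcp stood at 17857 ± 891 in Stim1KO Stat3C and 18336 ± 400 in Stat3C (95% interval -0.16 to 0.08). Its cofactors Ufd1l and Nploc4, which bind ubiquitinated substrates, had log2 fold changes of 0.11 and 0.02. Sec61b, a subunit of the channel through which proteins enter the ER, stood at 1735, 1965 and 1929 in Stim1KO Stat3C and at 1873, 2148 and 1916 in Stat3C, with overlap (log2 -0.08, adjusted p = 0.529).

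On the scale of normalised counts per kilobase of annotated exon (GENCODE, GRCm38), Calr was the most abundant of the 38, at 7896 in Stim1KO Stat3C and 7048 in Stat3C. P4hb followed, at 5019 in Stim1KO Stat3C and 5252 in Stat3C, then Pdia3, Hsp90b1 and Hspa5, at 4690, 4807 and 4357 in Stim1KO Stat3C and 4299, 4080 and 4073 in Stat3C. The order of Pdia3, Hsp90b1 and Hspa5 thus differed between groups. The lowest were Ern1, at 36.4 in Stim1KO Stat3C and 35.3 in Stat3C, Ero1lb, at 41.7 in Stim1KO Stat3C and 27.7 in Stat3C, and Derl3, at 20.9 in Stim1KO Stat3C and 6.39 in Stat3C. The genes that rose were therefore found at both ends of the range, Hsp90b1 near the top and Derl3 at the bottom. The 38 genes together took 0.858%, 0.875% and 0.88% of all normalised counts in Stim1KO Stat3C and 0.781%, 0.85% and 0.805% in Stat3C.

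Stat3C replicate 2 was the control library closest to Stim1KO Stat3C across the set. It was the highest of the 3 Stat3C libraries for 24 of the 38 genes, against 1 for replicate 1 and 13 for replicate 3, and replicate 1 was the lowest for 25. The median deviation of the 38 genes from their mean over all libraries, on the log2(value + 1) scale, was 0.03, 0.07 and 0.09 in Stim1KO Stat3C and -0.11, -0.01 and -0.07 in Stat3C. Over all genes tested this median stayed between -0.01 and 0.01 in every library. Stat3C replicate 2 was also the library with the highest myeloid marker sum, and the part of those cells in its ER gene levels was not tested. Within groups the 38 genes varied less than genes at large: their median coefficient of variation was 4.86% in Stim1KO Stat3C and 5.44% in Stat3C, against 8.32% in Stim1KO Stat3C and 7.88% in Stat3C over all genes tested. The set holds many abundant genes, and abundance was not matched in this description.

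**Figure D3:**
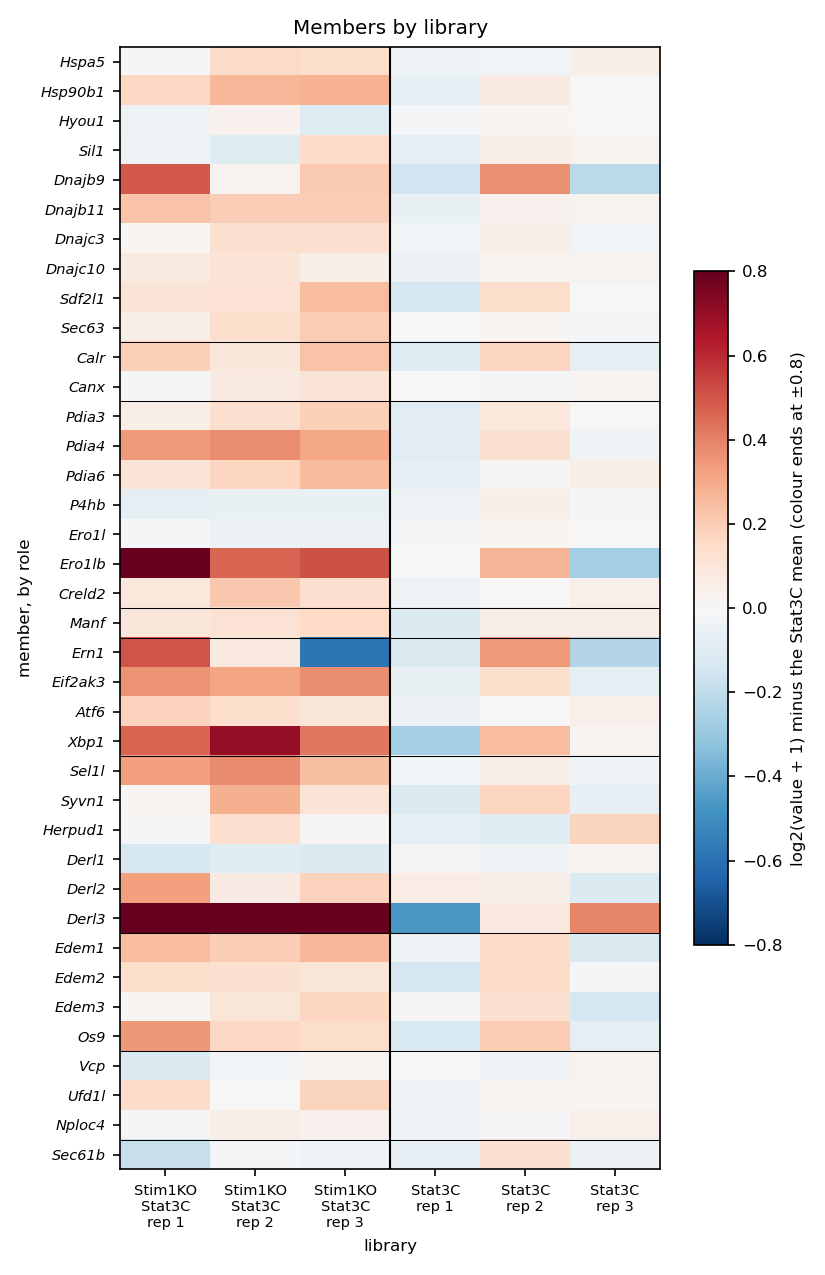
Log2(value + 1) of each of the 38 genes minus its Stat3C mean, with libraries as columns (Stim1KO Stat3C left, Stat3C right) and genes as rows by role. Red cells are above the Stat3C mean: they fill most of the left side, and on the right they gather in Stat3C replicate 2, the highest Stat3C library for 24 of the 38 genes.

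Other genes of the pathway were set beside these, in 11 lists drawn up by role. Of 186 tested, 11 rose (5.91%) and 9 fell (4.84%), with a median log2 fold change of 0.00, against 8.62% and 4.96% of all genes tested. These counts also varied with the libraries used, with 4 to 20 higher and 2 to 13 lower when 1 library was left out, the most without Stat3C replicate 2. Values in the next sentences are mean ± SD with n = 3 per group. The genes for import into the ER and signal peptide removal had 1 of 23 higher, Tram1, which helps chains enter the channel (3305 ± 145 in Stim1KO Stat3C and 2532 ± 135 in Stat3C), and 1 lower, Ssr2 (4112 ± 133 in Stim1KO Stat3C and 4707 ± 96.7 in Stat3C). Of 21 genes for N-glycan transfer, Stt3b, a catalytic subunit of the oligosaccharyltransferase, fell (3749 ± 260 in Stim1KO Stat3C and 4460 ± 163 in Stat3C). A negative sign was seen for 16 of the 21, against 5994 of all 11947 genes tested.

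Further along the same route, Ngly1, the cytosolic enzyme that removes glycans from ERAD substrates, rose as 1 of 10 genes of glycan trimming (648 ± 35.4 in Stim1KO Stat3C and 450 ± 70.8 in Stat3C). Of 22 other foldases Erp44 (2098 ± 192 in Stim1KO Stat3C and 1733 ± 32.4 in Stat3C) and Qsox1 (873 ± 93.9 in Stim1KO Stat3C and 611 ± 119 in Stat3C) rose. Among 25 other ERAD genes none rose by limma, edgeR or voom and 1, Ubxn4, by DESeq2, with 3 higher at an unadjusted p under 0.05, and Ube2j2, a ubiquitin-conjugating enzyme, fell (283 ± 24.8 in Stim1KO Stat3C and 380 ± 22.5 in Stat3C). None of 12 regulators of the sensors passed the test by limma, with 1 at an unadjusted p under 0.05 and none by edgeR, DESeq2 or voom. Their most abundant gene, Tmbim6, stood at 8433 ± 526 in Stim1KO Stat3C and 7806 ± 427 in Stat3C.

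In the list labelled PERK output 3 of 15 rose (20%, against 8.62% of all genes tested), 1 fell (6.67%, against 4.96%) and 11 did not pass. That list also holds genes of the kinases related to PERK and of the substrate they share, which are not outputs of PERK. Whether PERK had a part in the changes below was not tested. Ddit3, which encodes the stress factor CHOP, stood at 408, 314 and 288 in Stim1KO Stat3C and at 128, 192 and 166 in Stat3C (log2 1.06, SE 0.19, adjusted p = 0.0113). Chac1, a target of ATF4 and CHOP that degrades glutathione, was low and higher in Stim1KO Stat3C (54.5 ± 6.30 against 22.1 ± 2.76 in Stat3C), and Atf3, named to complete the count, had a log2 fold change of 1.44. Nfe2l2, which encodes NRF2, fell (639 ± 75.0 in Stim1KO Stat3C against 1004 ± 173 in Stat3C). Atf4 was among the genes that did not pass, at 9498 ± 314 in Stim1KO Stat3C and 9798 ± 966 in Stat3C. Its values overlapped (log2 -0.04, adjusted p = 0.74 by limma). Eif2ak3 itself is given above; the RNA level of a kinase does not show its activity.

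Among 14 genes of ER calcium binding and transport, the IP3 receptor gene Itpr3 (2582 ± 184 in Stim1KO Stat3C against 1796 ± 109 in Stat3C), Sdf4, whose protein Cab45 is known from the Golgi, and Itpr2 rose, Itpr2 being named to complete the count. Rcn3, a reticulocalbin of the secretory pathway, fell at a low level, with 27.4, 26.8 and 23.9 in Stim1KO Stat3C and 83.1, 181 and 93.0 in Stat3C. Of 19 genes of ER export Ergic1 fell (log2 -0.29), and of 12 genes of ER turnover Tex264, a receptor for ER-phagy, rose (log2 0.44).

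The cytosolic heat shock proteins, relatives of the ER chaperones outside the ER, had none of 13 higher by limma, also at an unadjusted p under 0.05. By limma 3 were lower (23.1%, against 4.96% of all genes tested), while edgeR called 2 lower, DESeq2 5 and voom 2. Hsp90aa1 and Hsp90ab1, the cytosolic counterparts of Hsp90b1, had log2 fold changes of -0.24 (adjusted p = 0.044) and -0.27 (adjusted p = 0.0379), and their cochaperone Ahsa1 had -0.24 (adjusted p = 0.0471), all by limma. Hsp90ab1 stood at 109038, 116822 and 120073 in Stim1KO Stat3C and at 142322, 128610 and 145688 in Stat3C. Both cytosolic Hsp90 genes were thus lower without overlap while Hsp90b1 was higher without overlap; the difference between these genes was not tested.

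**Figure D4:**
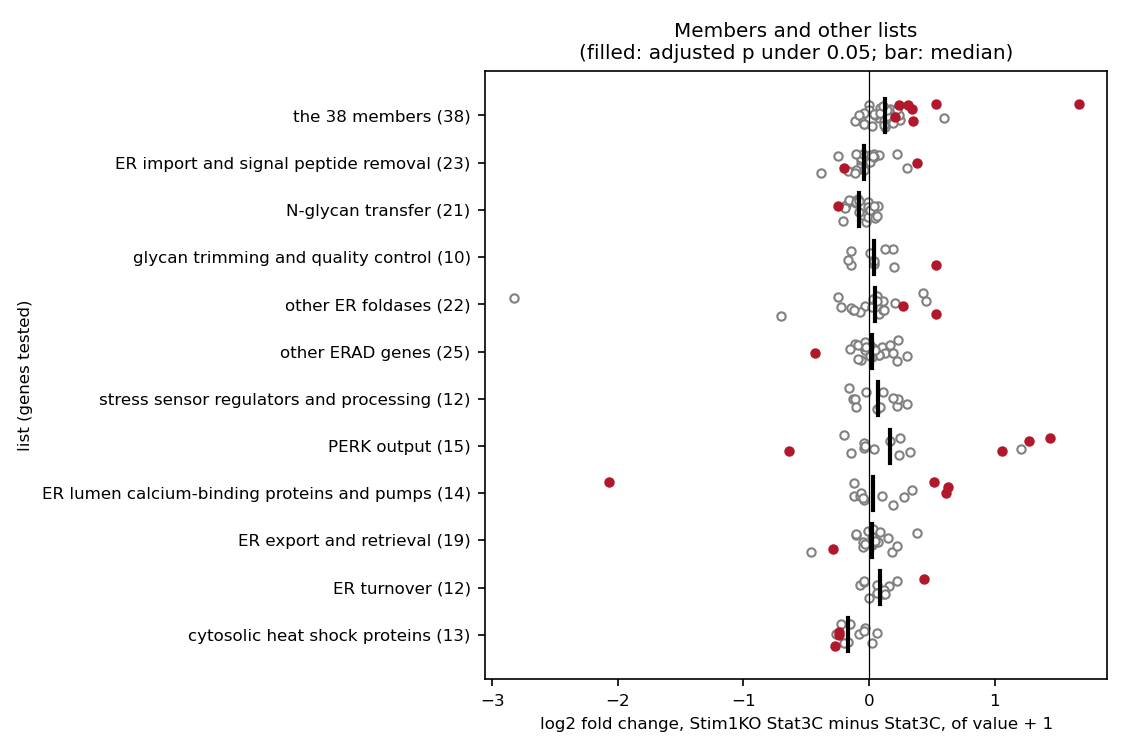
Log2 fold change of value + 1, Stim1KO Stat3C minus Stat3C (horizontal axis), of each tested gene in the set of 38 and in 11 other lists (rows, number tested in brackets), with filled points past an adjusted p of 0.05 and a bar at the median. The median is 0.13 for the 38 genes and -0.17 for the 13 cytosolic heat shock genes.

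**Figure D5:**
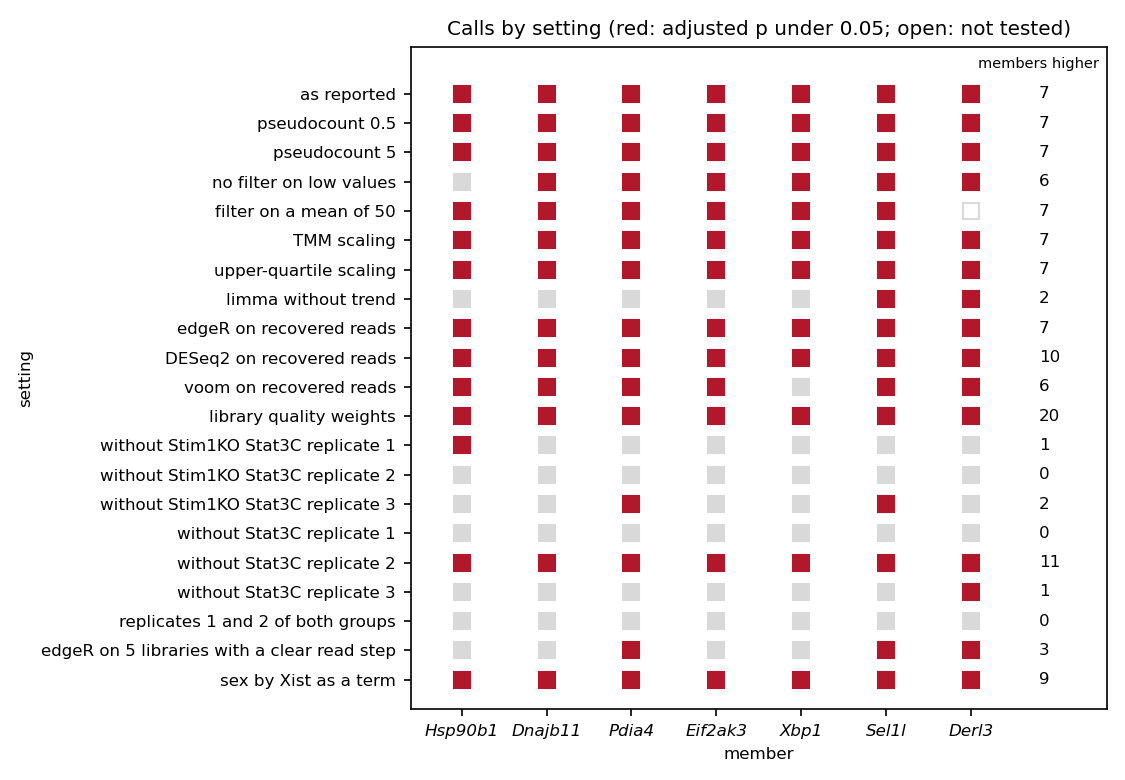
Whether each of the 7 genes (columns) passed an adjusted p of 0.05 under each setting (rows), with the number of all 38 genes called higher at the right. Calls thin out in the rows that leave out a library, from 0 to 2 of the 38 except without Stat3C replicate 2, where 11 were called.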

How the data were processed

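The 6 libraries, 3 per genotype, were prepared for sequencing of poly(A) RNA with strand information kept, per the labels' protocols. Per the submitters' processing notes the tools were TopHat2 2.1.1, HTSeq 0.11.1 and DESeq2 1.22.2 with build mm10. What each tool served for, the gene models used and the strand setting in counting are not stated there. Exons of Hsp90b1, Pdia4 and Eif2ak3, among the genes that rose, share bases with other annotated transcripts, so their counts may include or lose reads there. The deposited values are a normalised signal: within each column 100% of the values above 0 came out whole, within 0.01, once divided by 1 fixed step, as read counts do after scaling by library. For Stim1KO Stat3C replicate 3 that step (0.995) is too close to 1 to tell from rounding. Of 23420 rows, 27 with names turned into dates (up to 0.217% of a library's reads) were left out, and with them March6 of the ERAD list. A value of 0 allows up to 3 reads, or 1.30 to 4.11 normalised counts by library, which covers counting error only.

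limma 3.58.1 (R 4.3.3) with a variance trend was fitted to log2(value + 1) of the 11947 genes whose mean reached 10, two-sided, with Benjamini-Hochberg adjustment over these genes at 0.05. Fold changes on this scale understate those of low genes. Alternatives used edgeR 4.0.16, DESeq2 1.42.0 and voom on the recovered reads (edgeR called 1507 genes), other scalings, filters and pseudocounts, fewer libraries, and limma with sex, read from Xist (100 normalised counts or more), as a second term. The steps were tested on simulated data. Replicates were numbered in accession order. The 38 genes, the lists and the alternatives were chosen with earlier results of these data known. All 38 are named. Of each other list up to 3 genes past the threshold by smallest p are named, or the most abundant where none passed. Atf3, Itpr2 and Atf4 were added after their values were seen. Of 198 listed pathway genes 197 were found. Sequences are from RefSeq, positions from GENCODE mouse release M21. Some marker genes of the lists are not reported here.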

Additional observations from a re-analysis of the deposited data

How the results depend on the processing

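Of the 38 genes, 7 were called higher with either other pseudocount, TMM or upper-quartile scaling and edgeR, 6 without a filter and with voom, and 10 with DESeq2. A mean filter of 50 left Derl3 untested and also gave 7, with Ero1lb in place of Derl3. The count was 2 with limma without a trend, 20 with library quality weights, 3 with edgeR on the 5 libraries with a clear read step (added after the data were seen), 0 with replicates 1 and 2 of both groups, and 0 to 11 with 1 library left out. None was called lower in any setting. For all genes, against 1623, the same settings gave 1412 without a filter, 1350 with voom and 2250 with DESeq2. They gave 827 without a trend, 3959 with quality weights and 922 with edgeR on 5 libraries. The settings also gave 82 with replicates 1 and 2, and 617 to 2899 with 1 library left out. For the other pathway genes, against 11 higher and 9 lower, they gave 6 higher and 1 lower without a trend, 34 and 17 with quality weights, 5 and 2 with edgeR on 5 libraries, 0 and 0 with replicates 1 and 2, and 14 lower with DESeq2; with 1 library left out the ranges were 4 to 20 higher and 2 to 13 lower. Fewer libraries leave fewer degrees of freedom; beyond that the cause was not tested. The sign turned only for genes near 0 that passed in no setting: Sil1 (-0.07 to 0.05 with 1 library left out, -0.01 with either scaling, -0.00 with DESeq2, -0.05 with replicates 1 and 2, -0.08 with edgeR on 5 libraries), Ern1 (-0.25 to 0.29 with 1 library left out, 0.03 with edgeR and DESeq2, 0.13 with quality weights, 0.17 with replicates 1 and 2, 0.27 with edgeR on 5 libraries), Herpud1 (-0.00 without Stim1KO Stat3C replicate 2, -0.01 without Stat3C replicate 2), Edem3 (-0.01 with replicates 1 and 2), Vcp (0.00 without Stim1KO Stat3C replicate 1), and Hyou1 and Sec61b (0.00 with quality weights). With sex as a second term (added after the data were seen) 9 of the 38 were called higher, and Pdia6 and Ero1lb were the ones gained. Over all genes 1816 were called in that fit, against 1623. No paired analysis was possible because the labels give the groups no shared replicate numbers; sex, which the data show, is a covariate and pairs no samples. Depth limits Derl3 most, at 17 to 38 reads per library.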
